A study of Mus musculus with 10 samples.

Results

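The CC chemokine ligands Ccl2, Ccl3, Ccl4, Ccl5, Ccl6, Ccl7, Ccl9, Ccl12 and Ccl24 were followed in microglia of the midbrain and of the striatum from mice without treatment. They were 9 of the 53715 genes in the count files and were chosen by name among the secreted ligands of 1 family. Earlier results of these data were known at that choice, so the shares of all genes given below are not a test of the set. All 9 passed the filter on low counts in every comparison. The mice were C57BL/6 (C57BL/6 J in the methods of the study), male, untreated and 3 months old, in all groups. After perfusion the tissue was digested with papain, myelin was removed on Percoll, and CD11b+ cells were taken with magnetic beads, so that any CD11b+ leukocyte in the tissue could enter a library together with the microglia. By the flow cytometry of the study, nearly all separated cells were CD45low CD11b+ microglia, with few CD45high CD11b+ cells. Polyadenylated RNA was sequenced in bulk from the 3′ end (MARS-seq). The pilot cohort comprised 2 midbrain and 2 striatum libraries. In the second cohort, 2 midbrain libraries (replicates 1 and 3) and 2 striatum libraries (replicates 1 and 3) were compared. A further 2 libraries of the second cohort, titled Mdb 2 and Str 2, have a title that names one region and a file name that names the other, and they entered no group.

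CC chemokines are small secreted proteins with a pair of adjacent cysteines near the amino terminus. They act on G protein-coupled receptors of leukocytes and guide these cells into tissue. Ccl2, Ccl7 and Ccl12 are ligands of Ccr2, the receptor by which inflammatory monocytes leave the bone marrow and enter inflamed organs. Ccl3, Ccl4 and Ccl5 attract monocytes and T cells, and Ccl3 and Ccl5 act on Ccr1. Ccl6 and Ccl9 are rodent ligands of Ccr1, and Ccl24 is an eotaxin, a ligand of the eosinophil receptor Ccr3. Microglia and other brain macrophages can make several of them, and some of their genes are classical targets of NF-kB.

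Of the 9 genes, 8 lie on mouse chromosome 11 of GRCm38. Ccl2 (82035571 to 82037453), Ccl7 (82045712 to 82047525) and Ccl12 (82101845 to 82103400) are neighbours on the plus strand. Ccl5 (83525778 to 83530518), Ccl9 (83572919 to 83578636), Ccl6 (83587882 to 83593087) and Ccl3 (83647844 to 83649355) follow on the minus strand, and Ccl4 (83662584 to 83664683) lies beside them on the plus strand. Ccl24 lies alone on chromosome 5 (135569937 to 135573049, minus strand). No exon of another gene overlapped an exon of these 9 genes, and the share of 30-base words of their exons that recurred in another gene was 0% for Ccl2, Ccl3, Ccl4, Ccl7 and Ccl12, 0.155% for Ccl24, 0.861% for Ccl5, 1.08% for Ccl6 and 4.18% for Ccl9. The shared words of Ccl9 recurred in 2192 other genes, and those of Ccl6 in 1.

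RefSeq promoters (GRCm38.p6) could be matched for 4 of the 9 genes, Ccl12, Ccl9, Ccl6 and Ccl3, and all 4 are shown. The 250 bases before each start site are written 5′ to 3′ on the strand of the gene. Capitals mark matches to the NF-kB motif (kappaB site), the PU-box GAGGAA bound by the myeloid factor PU.1, the TATA box TATAAA and the AP-1 site TGANTCA, each searched on both strands.
Ccl12, chr11:82101595-82101844, plus strand: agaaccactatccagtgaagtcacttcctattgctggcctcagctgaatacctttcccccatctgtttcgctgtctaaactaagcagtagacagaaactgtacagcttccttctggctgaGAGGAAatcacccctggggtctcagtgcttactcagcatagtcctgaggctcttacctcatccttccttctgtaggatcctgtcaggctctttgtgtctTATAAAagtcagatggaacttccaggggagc
Ccl9, chr11:83578637-83578886, minus strand: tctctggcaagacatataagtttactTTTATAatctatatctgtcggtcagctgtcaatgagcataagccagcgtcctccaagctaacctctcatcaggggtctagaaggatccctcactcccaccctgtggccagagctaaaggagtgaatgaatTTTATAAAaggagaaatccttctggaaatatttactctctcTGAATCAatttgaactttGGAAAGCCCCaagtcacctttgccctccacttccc
Ccl6, chr11:83593088-83593337, minus strand: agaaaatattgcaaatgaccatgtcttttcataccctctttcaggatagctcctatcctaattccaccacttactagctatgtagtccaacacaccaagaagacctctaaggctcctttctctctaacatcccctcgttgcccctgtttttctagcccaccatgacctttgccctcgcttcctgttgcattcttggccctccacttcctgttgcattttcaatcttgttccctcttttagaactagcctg
Ccl3, chr11:83649379-83649628, minus strand: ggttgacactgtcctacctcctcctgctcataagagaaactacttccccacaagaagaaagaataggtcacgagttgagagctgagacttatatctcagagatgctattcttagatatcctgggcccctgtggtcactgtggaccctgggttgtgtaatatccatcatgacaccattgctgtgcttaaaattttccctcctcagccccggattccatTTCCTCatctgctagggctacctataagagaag
The Ccl12 window held a PU-box from 130 to 125 bases and a TATA box from 31 to 26 bases before the start. The Ccl9 window held a kappaB match on the opposite strand from 35 to 26 bases before the start, an AP-1 match from 53 to 47 bases and TATAAA matches from 92 to 87, 94 to 89 and 224 to 219 bases. The first 2 of these TATAAA matches overlap on opposite strands. The Ccl3 window held a PU-box on the opposite strand from 33 to 28 bases, and the Ccl6 window held no match. Among 32851 mouse promoter windows of that length, 7.25% held the kappaB motif, 23.3% the PU-box, 12.4% the TATA box and 6.75% the AP-1 site. The longest run common to the Ccl6 and Ccl9 windows was gccctccacttcc, 13 bases that begin 55 and 14 bases before their starts. These matches describe letters and do not show binding.

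The libraries held between 575709 and 8463782 counts, with second striatum replicate 3 the shallowest, and 3 counts corresponded to between 0.354 and 5.21 CPM, the counts of a gene scaled to a common library size. All levels below are CPM with TMM factors. The homeostatic microglia genes, led by Csf1r, Tmem119 and P2ry12, were well expressed in every library, with a summed level of 12145 to 13777 CPM in the pilot midbrain, 17156 to 18295 in the pilot striatum, 13465 to 15270 in the second midbrain and 18948 to 24025 in the second striatum. Markers of other leukocytes were present in every group and higher in the midbrain. The 10 border macrophage genes (most abundant Pf4, Stab1 and Cbr2) summed to 1895 to 2264 CPM in the pilot midbrain against 964 to 1320 in the striatum, and to 2540 to 3024 against 612 to 707 in the second cohort, and 6 of the 9 tested passed the joint test over both cohorts. The 8 monocyte genes (Plac8, Chil3 and Fn1) summed to 189 to 224 CPM against 83.7 to 87.6 and to 515 to 2531 against 113 to 184, with 2 of 8 past the joint test. The 9 neutrophil genes (S100a9, Ngp and S100a8) summed to 763 to 1118 against 277 to 395 and to 3555 to 6101 against 506 to 536, with 4 of 9 past it. The 12 T and NK cell genes (Gzma, Nkg7 and Gzmb) summed to 94.8 to 126 against 22.6 to 53.9 and to 193 to 353 against 17.2 to 70.9, with Nkg7 the 1 gene of 9 past it. Of the genes that define T cells, Cd3e had at most 3 counts in any library, Cd3d at most 10 and Cd3g at most 4, and Trbc2 had a joint log2 fold change of 2.06 (adjusted p = 0.0887, limma). Folr2 of the border macrophage list also had at most 3 counts, and no listed marker of any cell type was at 0 in every library. In these bulk samples, a different number of cells of a type and a different amount of RNA per cell cannot be told apart.

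**Figure D1:**
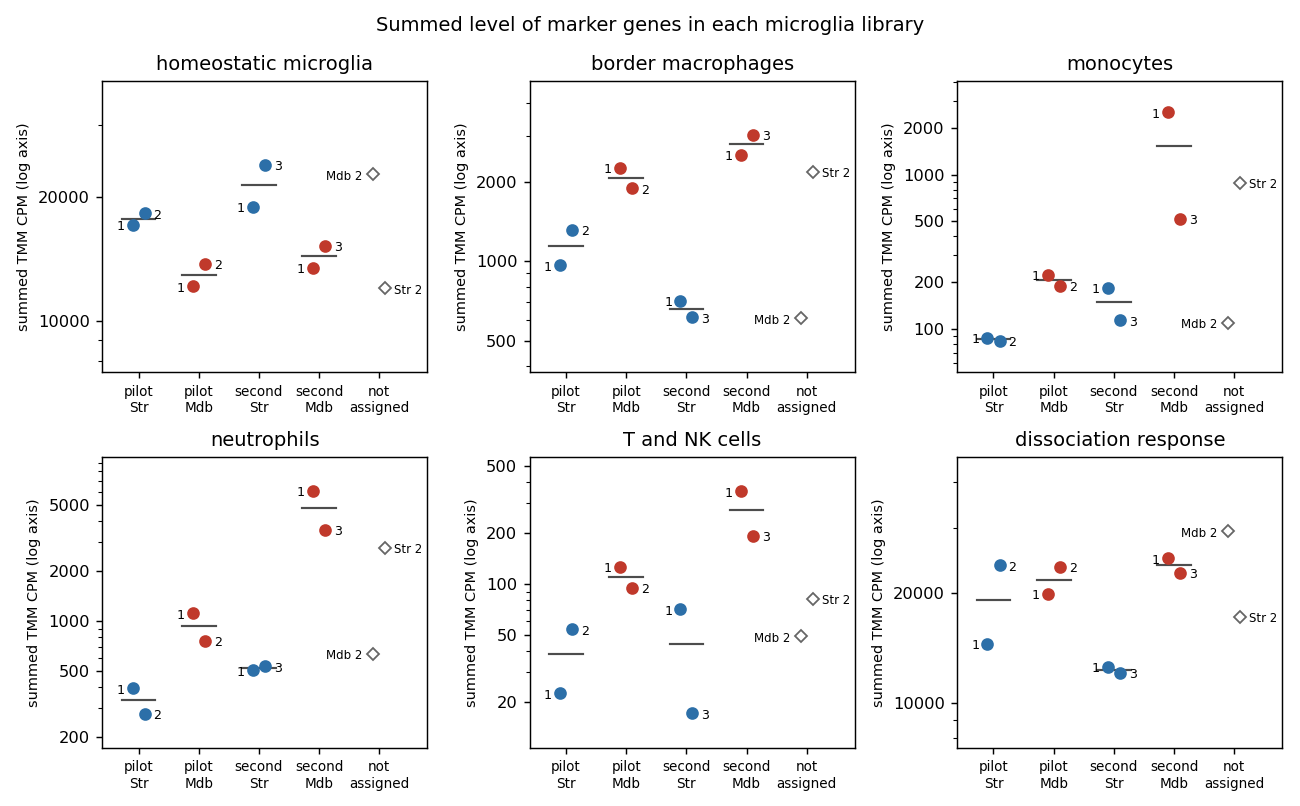
Summed TMM CPM (vertical, log axis) of 6 marker lists in each library, by cohort and region (horizontal); points are libraries with their replicate number, lines are means of 2 libraries, and open diamonds are the libraries titled Mdb 2 and Str 2. Midbrain libraries lie above striatum libraries of the same cohort for border macrophages, monocytes, neutrophils, and T and NK cells, and below them for homeostatic microglia genes.

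The mean level was higher in the midbrain for 8 of the 9 ligands in the pilot, all but Ccl9, and for all 9 in the second cohort. The summed level of the 9 genes was 3640 and 4200 CPM in the pilot midbrain libraries against 2328 and 3705 in the pilot striatum, and 10285 and 6783 in the second midbrain against 2428 and 2708 in the second striatum. In the pilot cohort, 3 of the 9 ligands (Ccl5, Ccl12 and Ccl24) were higher in the midbrain at an unadjusted p under 0.01 in limma, the threshold of the study within each cohort, against 2.09% of all 14972 genes tested. In the second cohort, 8 of 9 were (all but Ccl6), against 2.88% of 13486 genes. Ccl5, Ccl12 and Ccl24 passed in both cohorts, as 1.18% of the 13210 genes tested in both did. None of the 9 passed the same threshold as lower in the midbrain, which 0.548% of all genes did in the pilot and 0.593% in the second cohort. In the joint fit of 4 midbrain and 4 striatum libraries with the cohort as a covariate, Ccl5 and Ccl12 had an adjusted p under 0.05, against 0.975% of 14053 genes. The median log2 fold change of the 9 genes was 0.94 in the pilot, 2.50 in the second cohort and 1.83 in the joint fit, and that of all genes tested was 0.02, 0.00 and 0.04.

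Both midbrain libraries lay above both striatum libraries for 4 ligands in the pilot (Ccl5, Ccl6, Ccl12 and Ccl24) and for all 9 in the second cohort. Over all genes tested this held for 23.5% in the pilot and 24.3% in the second cohort. For the same 4 ligands it held in both cohorts (9.06% of all genes), and over all 8 libraries no striatum library reached the lowest midbrain library. The share of all genes apart over all 8 libraries at once was not computed. For the other 5 the groups overlapped in the pilot.

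**Figure D2:**
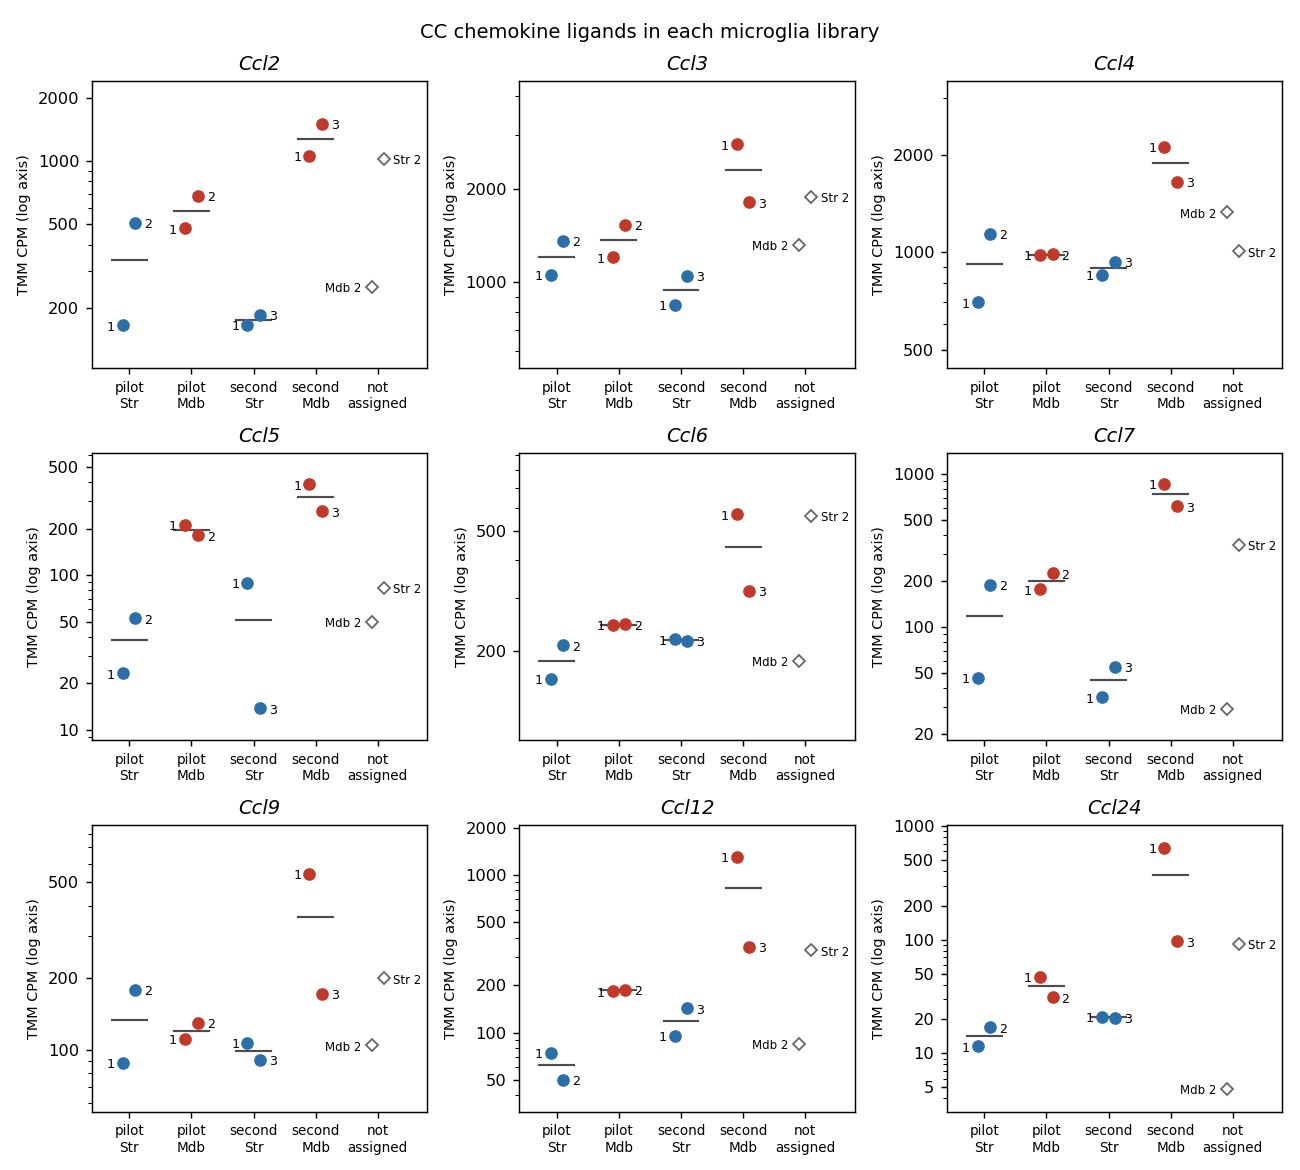
TMM CPM (vertical, log axis) of each CC chemokine ligand in each library, by cohort and region (horizontal); points are libraries with their replicate number, lines are means of 2 libraries, and open diamonds are the libraries titled Mdb 2 and Str 2. Ccl5, Ccl6, Ccl12 and Ccl24 separate midbrain from striatum in both cohorts, whereas Ccl2 and Ccl7 overlap in the pilot through striatum replicate 2 and separate in the second cohort.

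Among the ligands of Ccr2, Ccl12 was higher in the midbrain in both cohorts, and Ccl2 and Ccl7 were higher in the second cohort. Ccl2, the main monocyte attractant, measured 479 and 681 CPM in the pilot midbrain (replicates 1 and 2), 165 and 507 in the pilot striatum, 1057 and 1504 in the second midbrain (replicates 1 and 3) and 166 and 186 in the second striatum. Pilot striatum replicate 2 thus lay between the midbrain libraries, 3.07 times above replicate 1, while the second cohort showed no overlap. The midbrain mean was 1.73 times the striatum mean in the pilot and 7.29 times in the second cohort. This corresponded to a log2 fold change of 0.94 (SE 0.45, 95% interval −0.07 to 1.96, adjusted p = 0.477 in limma) in the pilot and 2.85 (SE 0.28, adjusted p = 0.00136) in the second cohort.

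Ccl7, which also attracts monocytes, followed Ccl2. It measured 177 and 225 CPM in the pilot midbrain, 46.6 and 189 in the pilot striatum, 865 and 618 in the second midbrain and 34.9 and 55.0 in the second striatum. The level of pilot striatum replicate 2 again fell within the midbrain range, 4.05 times above replicate 1. The midbrain mean was 1.70 times the striatum mean in the pilot and 16.5 times in the second cohort. On the log2 scale the difference was 1.00 (SE 0.52, 95% interval −0.17 to 2.18, adjusted p = 0.503 in limma) in the pilot and 4.19 (SE 0.34, adjusted p = 0.000265) in the second cohort. With limma, Ccl2 and Ccl7 were the 2 of the 9 ligands with an adjusted p under 0.05 in the second cohort, against 0.356% of all genes. At that threshold 5 of 9 passed with edgeR (1.25% of all genes) and 7 of 9 with DESeq2 (1.68%).

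Ccl2 and Ccl7 in the pilot depended on which striatum library was kept. Without pilot striatum replicate 2 the log2 fold changes were 1.78 for Ccl2 and 2.09 for Ccl7 and passed the threshold, and without replicate 1 they were 0.10 and 0.01. The summed level of 13 genes of the dissociation response (immediate early and heat shock genes, most abundant Jun, Junb and Fos) differed in the same way, with 14481 CPM in pilot striatum replicate 1 and 23746 in replicate 2 against 19886 and 23487 in the pilot midbrain. In the second cohort that sum was 12065 to 12535 CPM in the striatum and 22661 to 24850 in the midbrain, and 2 of the 13 genes, Nr4a1 and Fosb, passed the joint test. Outside the groups the order was the other way round. The library titled Mdb 2 held a sum of 29379 CPM with 251 CPM of Ccl2 and 29.4 of Ccl7. The library titled Str 2 held 17201 CPM with 1024 and 347. The part of the dissociation response in the levels of Ccl2 and Ccl7 was not tested. In the joint fit neither gene passed (Ccl2 1.83, adjusted p = 0.0578, and Ccl7 2.30, adjusted p = 0.0844, limma), whereas with DESeq2 Ccl2 did (adjusted p = 0.0469).

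Ccl12, a mouse monocyte attractant closely related to Ccl2, measured 183 and 187 CPM in the pilot midbrain, 74.3 and 50.3 in the pilot striatum, 1305 and 351 in the second midbrain and 95.7 and 143 in the second striatum. All 4 midbrain libraries exceeded all 4 striatum libraries, and second midbrain replicate 1 stood 3.72 times above replicate 3. The midbrain mean was 2.97 times the striatum mean in the pilot and 6.95 times in the second cohort. Log2 fold changes past the threshold were found in the pilot (1.57, SE 0.20, adjusted p = 0.0905 in limma) and in the second cohort (2.61, SE 0.54, adjusted p = 0.0807). In the joint fit the value was 2.09 (SE 0.38, adjusted p = 0.0310). The pilot call held without any single library (1.31 to 1.81). The second cohort value was 1.70 without midbrain replicate 1, 3.61 without midbrain replicate 3 and 2.20, no longer past the threshold, without striatum replicate 1. The joint call was lost without pilot midbrain replicate 1, pilot midbrain replicate 2, pilot striatum replicate 1, second striatum replicate 1 or second striatum replicate 3, with log2 fold changes of 2.19, 2.17, 2.31, 1.75 and 2.07.

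Of Ccl3, Ccl4 and Ccl5, the last was higher in the midbrain in both cohorts by similar factors, whereas Ccl3 and Ccl4 were higher in the second cohort and had pilot midbrain means 1.13 and 1.07 times those of the striatum. Ccl5, made by T and NK cells as well as by activated macrophages and microglia, measured 212 and 182 CPM in the pilot midbrain, 23.1 and 52.7 in the pilot striatum, 387 and 259 in the second midbrain and 89.5 and 13.7 in the second striatum. The last of these values rested on 8 counts, and every striatum library lay below every midbrain library. The midbrain mean was 5.19 times the striatum mean in the pilot and 6.26 times in the second cohort. Limma gave a log2 fold change of 2.38 (SE 0.33, adjusted p = 0.103) in the pilot, 2.50 (SE 0.53, adjusted p = 0.0856) in the second cohort and 2.43 (SE 0.34, adjusted p = 0.0174) in the joint fit.

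The Ccl5 calls within the cohorts held without any single library. The pilot value was 1.83 without striatum replicate 1 and 3.08 without striatum replicate 2. The second cohort value was 4.41 without striatum replicate 1 and 1.81 without striatum replicate 3, the library with 8 counts. With DESeq2 the second cohort call, set at an unadjusted p under 0.01, was lost (adjusted p = 0.393). The unadjusted p of Ccl5, like that of all 9 ligands, was under 0.05 in that fit. The joint call was lost without pilot midbrain replicate 1 (2.38), pilot striatum replicate 1 (2.16), second striatum replicate 1 (2.61) or second striatum replicate 3 (2.18). The summed level of the T and NK cell genes was 22.6 and 53.9 CPM in the pilot striatum libraries and 70.9 and 17.2 in the second striatum libraries. Of the 9 tested, Nkg7, a cytotoxic granule protein, passed the joint test (2.01, adjusted p = 0.0209, limma). The part of these cells in the level of Ccl5 was not tested.

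Ccl3, an attractant of monocytes and T cells, measured 1206 and 1534 CPM in the pilot midbrain, 1057 and 1364 in the pilot striatum, 2798 and 1817 in the second midbrain and 845 and 1050 in the second striatum. Ccl4, its close relative and neighbour, measured 980 and 984 CPM in the pilot midbrain, 701 and 1139 in the pilot striatum, 2112 and 1648 in the second midbrain and 850 and 933 in the second striatum. For both genes the regions overlapped in the pilot and were apart in the second cohort. The log2 fold change of Ccl3 was 0.14 (95% interval −0.35 to 0.63) in the pilot and 1.26 (SE 0.26, adjusted p = 0.0813 in limma) in the second cohort. That of Ccl4 was 0.10 (−0.47 to 0.66) in the pilot and 1.06 (SE 0.23, adjusted p = 0.0988) in the second cohort. The pilot intervals leave room for a regional difference of up to about 0.63 for Ccl3 and 0.66 for Ccl4 on the log2 scale. Without second striatum replicate 1 both second cohort calls were lost (1.07 and 0.97), and without replicate 3 that of Ccl4 was (1.13).

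The pair had the highest levels per length of transcript. As mean CPM per kilobase of exon, Ccl3 stood at 1789 and Ccl4 at 1488 in the pilot midbrain, at 1580 and 1393 in the pilot striatum, at 3012 and 2848 in the second midbrain and at 1237 and 1351 in the second striatum. Ccl3 and Ccl4 could not be ordered beyond the spread of their libraries in the pilot striatum, the second midbrain and the second striatum. The next gene was Ccl2 in both pilot groups (510 in the midbrain, 295 in the striatum) and Ccl12 in both second cohort groups (1541 and 222). Ccl24 was lowest in the pilot midbrain, the pilot striatum and the second striatum (30.2, 11 and 16.1), and Ccl9 in the second midbrain (118). In the second midbrain the libraries of Ccl12 overlapped on this scale with those of Ccl3, Ccl2 and Ccl7, and those of Ccl9 with Ccl24 and Ccl6. In the pilot striatum the libraries of Ccl2 and Ccl7 overlapped. In the second striatum those of Ccl24 and Ccl5 did, and replicate 3 stood at 15.9 for Ccl24 and 14.3 for Ccl5. Reads came from the 3′ end, so a level per length is not a number of molecules.

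Of the Ccr1 ligands Ccl6 and Ccl9, neither passed in the pilot or in the joint fit, and Ccl9 passed in the second cohort. Ccl6, which resting myeloid cells already express, measured 244 and 245 CPM in the pilot midbrain, 162 and 209 in the pilot striatum, 571 and 318 in the second midbrain and 219 and 217 in the second striatum. Every midbrain library lay above every striatum library, but by a small margin in the pilot. The differences on the log2 scale were 0.37 (95% interval −0.07 to 0.81) in the pilot, 0.95 (0.28 to 1.63, adjusted p = 0.289) in the second cohort and 0.67 (adjusted p = 0.143) in the joint fit, and none passed its threshold. The second cohort value was 1.42 and passed without midbrain replicate 3, and it was 0.56 without midbrain replicate 1.

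Ccl9 measured 111 and 129 CPM in the pilot midbrain, 88.4 and 178 in the pilot striatum, 545 and 171 in the second midbrain and 107 and 91.1 in the second striatum. Its pilot midbrain values lay inside the striatum range, and the second midbrain libraries differed by 3.18 times. Its log2 fold change was −0.12 (95% interval −0.82 to 0.59) in the pilot and 1.58 (SE 0.49, adjusted p = 0.264 in limma) in the second cohort. That second cohort call was lost without midbrain replicate 1 (0.77), striatum replicate 1 (1.70) or striatum replicate 3 (1.51), and also without a filter on low counts (1.62) or when each library had to hold 10 counts or more (1.64). In the pilot the value was 0.44 without striatum replicate 2, 0.02 without midbrain replicate 1 and −0.63, past the threshold, without striatum replicate 1.

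Ccl24, the eotaxin, measured 47.1 and 31.2 CPM in the pilot midbrain, 11.6 and 17 in the pilot striatum, 647 and 97.2 in the second midbrain and 21.1 and 20.6 in the second striatum. All midbrain libraries lay above all striatum libraries, and second midbrain replicate 1 stood 6.65 times above replicate 3, the widest gap between replicates among the 9 genes in that group. The midbrain mean was 2.75 times the striatum mean in the pilot and 17.8 times in the second cohort. Its log2 fold change was 1.36 (SE 0.31, adjusted p = 0.245 in limma) in the pilot, 3.56 (SE 0.95, adjusted p = 0.185) in the second cohort and 2.41 (SE 0.71, adjusted p = 0.135) in the joint fit. The pilot call was lost without midbrain replicate 1 (1.08). The second cohort call was lost without striatum replicate 1 (3.51) or striatum replicate 3 (3.55, 12 counts in that library), and the value was 2.21 without midbrain replicate 1 and 4.96 without midbrain replicate 3. It was also lost without a filter on low counts (3.60), and with DESeq2 the joint fit did pass (2.80, adjusted p = 0.0189).

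Second midbrain replicate 1 held the highest level of Ccl3, Ccl4, Ccl5, Ccl6, Ccl7, Ccl9, Ccl12 and Ccl24 of the 8 libraries. It also held the highest summed level of monocyte genes (2531 CPM against 515 in second midbrain replicate 3), neutrophil genes (6101 against 3555) and T and NK cell genes (353 against 193), whereas border macrophage genes were higher in replicate 3 (3024 against 2540). Ly6c2 and Ms4a4c of the monocyte list passed the joint test (2.24 and 2.60, adjusted p = 0.0442 and 0.0481), as did Mmp9, Retnlg, S100a9 and S100a8 of the neutrophil list (2.22, 3.24, 3.08 and 2.82, adjusted p = 0.0137, 0.0181, 0.0181 and 0.0420) and, led by Cd163, Pf4, F13a1 and Mrc1 (1.80, 2.11, 1.79 and 1.6, adjusted p = 0.0174, 0.0181, 0.0210 and 0.0220), 6 border macrophage genes, all with limma. Olfml3 and Siglech of the homeostatic list were lower in the midbrain (−0.62 and −0.84, adjusted p = 0.0367 and 0.0417). How much of the ligand levels came from these other cells was not tested. None of the 6 astrocyte genes (most abundant Aldoc, Slc1a2 and Slc1a3) and none of the 6 endothelial genes (Flt1, Cldn5 and Ly6c1) passed the joint test, with summed levels of 197 to 1523 and 48.4 to 363 CPM over the 8 libraries.

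**Figure D3:**
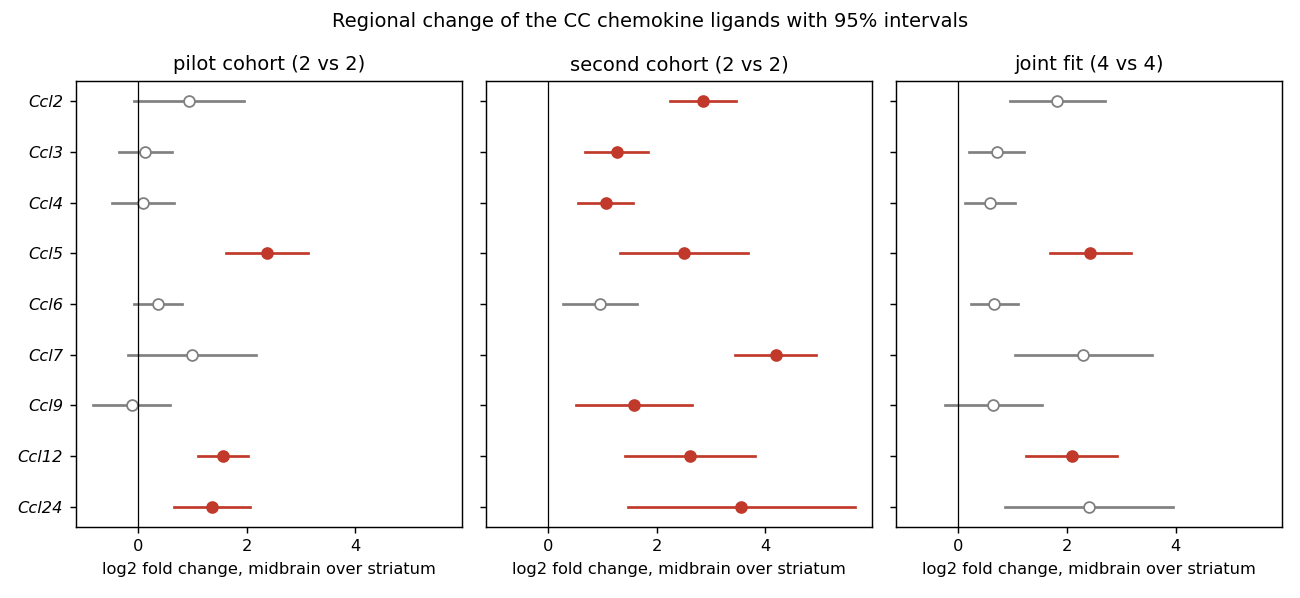
Log2 fold change, midbrain over striatum (horizontal), of the 9 ligands in the pilot cohort, the second cohort and the joint fit; points are limma estimates, lines are 95% intervals, and filled red points passed the threshold of that fit (unadjusted p under 0.01 within a cohort, adjusted p under 0.05 in the joint fit). Ccl5 is near 2.4 in all 3 panels, whereas Ccl7 moves from 1.00 in the pilot to 4.19 in the second cohort.

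The difference between the cohorts was tested directly. The regional log2 fold change was larger in the second cohort for all 9 ligands, with a median difference of 1.10 against −0.02 over all genes. The differences were 3.17 for Ccl7 (95% interval 1.37 to 4.97), 2.15 for Ccl24 (−0.87 to 5.18), 1.90 for Ccl2 (0.54 to 3.26), 1.66 for Ccl9 (0.09 to 3.23), 1.10 for Ccl3 (0.34 to 1.85), 1.03 for Ccl12 (−0.60 to 2.67), 0.94 for Ccl4 (0.21 to 1.67) and 0.56 for Ccl6 (−0.29 to 1.40). For Ccl5 it was 0.03 (−1.58 to 1.64), an interval that leaves room for a difference either way. In limma none of the 9 had an adjusted p under 0.05 (the lowest was 0.860), as for all genes (0.0% called), and 5 of 9 had an unadjusted p under 0.05, against 5.49% of all genes. With edgeR these counts were 0 (0 of 14053 genes) and 6 (5.24% of all genes). With DESeq2 they were 1 (Ccl7, against 3 of 14053 genes) and 7 (3.77%). Without pilot striatum replicate 1, Ccl2 and Ccl7 passed (2.69 and 4.14). The headers place the files of each cohort in a folder of its own, and the cohort, its animals and its handling cannot be told apart.

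Between cohorts, with the region as a covariate, Ccl12 and Ccl24 were higher in the second cohort, with log2 differences of 1.47 (SE 0.38, adjusted p = 0.0329, limma) and 2.17 (SE 0.61, adjusted p = 0.0436). In this comparison 4.71% of all genes were higher in the second cohort, and the share that was lower was not computed. Among the marker lists, 5 of 8 monocyte, 5 of 9 neutrophil, 2 of 9 T and NK cell and 3 of 11 homeostatic genes were higher. None of 9 border macrophage genes passed, and 1 of 6 astrocyte genes was higher. Of 13 dissociation response genes 1 was higher and 2 were lower, and 5 of 6 endothelial genes were lower. The part of these shifts in the ligand levels was not tested. The other 7 ligands had differences from 0.20 (Ccl3) to 0.74 (Ccl7) and did not pass. The number of ligands that passed was 0 without pilot midbrain replicate 1, pilot midbrain replicate 2 or second striatum replicate 3, 1 without pilot striatum replicate 1 and 6 without pilot striatum replicate 2. By group mean, Ccl2, Ccl3, Ccl4 and Ccl7 were ordered as second midbrain, pilot midbrain, pilot striatum and second striatum, so that the striatum mean was lower and the midbrain mean higher in the second cohort, although the striatum libraries of the cohorts overlapped for Ccl2, Ccl4 and Ccl7. For Ccl5, Ccl6, Ccl12 and Ccl24 the second striatum mean lay above the pilot striatum mean, although the Ccl5 libraries of these 2 groups overlapped.

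**Figure D4:**
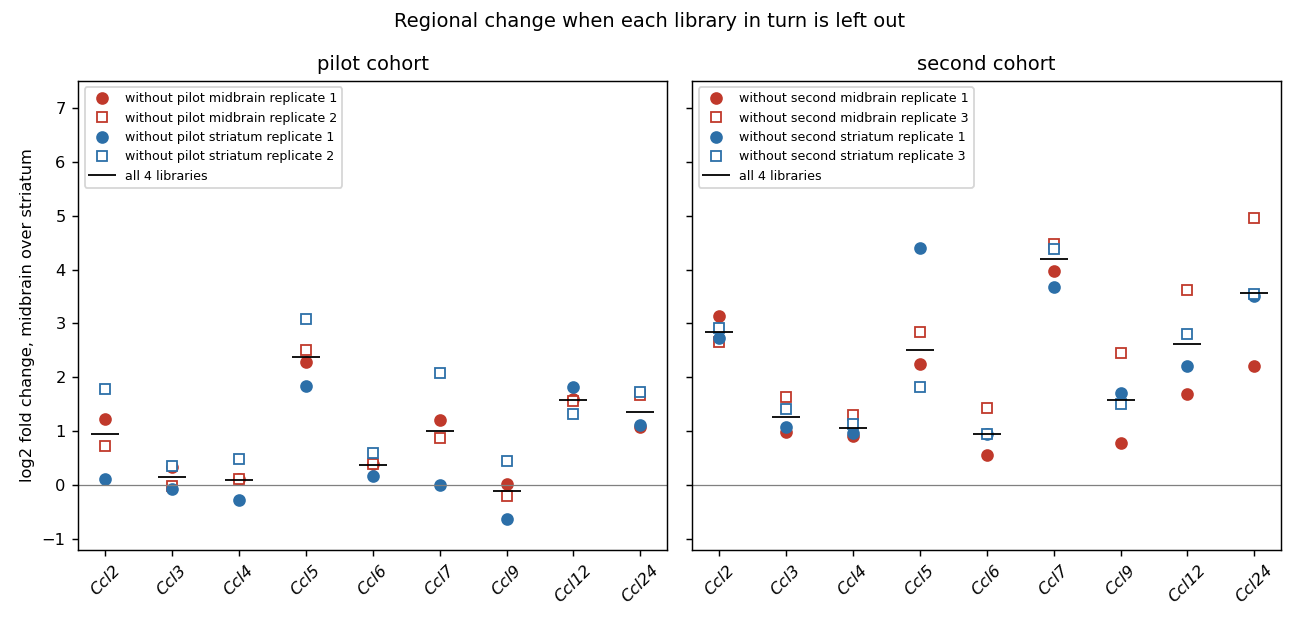
Log2 fold change, midbrain over striatum (vertical), of each ligand (horizontal) in each cohort with all 4 libraries (black line) and with 1 library left out (symbols). In the pilot, Ccl2 and Ccl7 run from near 0 to about 2 depending on the striatum library kept, while Ccl12 stays between 1.31 and 1.81; in the second cohort, Ccl24 runs from 2.21 to 4.96.

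The libraries titled Mdb 2 and Str 2 mattered for the second cohort. With each placed in the region of its title, 1 of the 9 ligands (Ccl4) passed in the second cohort and none in the joint fit, with log2 fold changes for Ccl2, Ccl7 and Ccl12 of 1.21, 1.25 and 0.95. With each placed in the region of its file name, 7 passed in the second cohort (Ccl6 among them, but not Ccl4 or Ccl5) and 5 in the joint fit. The share of all genes that passed was not computed for either placement. In the libraries titled Mdb 2 and Str 2, the summed CPM was 22765 and 12010 for homeostatic genes, 607 and 2187 for border macrophage genes, 637 and 2759 for neutrophil genes and 29379 and 17201 for the dissociation response. No region was assigned from these values.

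Of the receptors of these ligands, Ccr1 and Ccr2 were higher in the midbrain. Ccr2, the receptor of Ccl2, Ccl7 and Ccl12 and a gene of blood-derived monocytes, measured 47.3 and 43.5 CPM in the pilot midbrain, 12.7 and 14.9 in the pilot striatum, 183 and 58.9 in the second midbrain and 14.5 and 10.3 in the second striatum. Ccr1 measured 21.1 and 17.7 CPM in the pilot midbrain, 11 and 3.63 in the pilot striatum, 112 and 54.8 in the second midbrain and 13.5 and 8.59 in the second striatum. Neither gene showed overlap between regions within a cohort. Joint log2 fold changes were 2.14 (SE 0.43, adjusted p = 0.0420) for Ccr2 and 2.17 (SE 0.42, adjusted p = 0.0367) for Ccr1, with limma. Ccr3, the receptor of Ccl24, had at most 6 counts in any library and could not be tested. Of 15 listed receptors, 7 were tested in the joint fit, and Ccr1 and Ccr2 were the 2 that passed.

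Other genes of the pathway gave few further calls in the joint fit. Of 15 other CC ligands, 14 were in the files and 5 were tested in the joint fit, and none passed in limma. Within the cohorts, 0 of 5 tested passed in the pilot. In the second cohort 1 of 3 did, Ccl8 (log2 fold change 2.43, unadjusted p = 0.00298, adjusted p = 0.182, limma). Of 22 inducers and regulators of chemokine genes, 21 were tested, 2 passed and 15 had a log2 fold change above 0, with a median of 0.41. Il1b, the cytokine that induces many chemokine genes through NF-kB, measured 562 and 505 CPM in the pilot midbrain, 145 and 108 in the pilot striatum, 2283 and 777 in the second midbrain and 193 and 273 in the second striatum. The regions did not overlap, and the joint log2 fold change was 2.33 (SE 0.30, adjusted p = 0.0137, limma). Irf7, a transcription factor of the interferon response, had a joint log2 fold change of 1.38 (SE 0.27, adjusted p = 0.0410).

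The pattern over the 8 libraries linked some ligands more closely than others. As the cosine of the deviations of log2 CPM from the cohort mean, the closest pairs were Ccl6 with Ccl24 (0.986), Ccl4 with Ccl7 (0.977), Ccl2 with Ccl7 (0.975), Ccl12 with Ccl24 (0.954) and Ccl3 with Ccl4 (0.952), and the least alike were Ccl5 and Ccl9 (0.643). Among 8802 genes searched, the closest to Ccl2 were Man2a1 (0.995), Dusp1 (0.994) and Nfkbiz (0.989), the second a phosphatase of the dissociation response and the third an NF-kB cofactor. The closest to Ccl12 were Emb (0.995), Mir703 (0.992) and Il1b (0.987), and the closest to Ccl24 were Txn1 (0.996), Lilr4b (0.991) and Cd40 (0.991). Ccl6 was closest to S100a4 (0.990), 2810013P06Rik (0.987) and Ccl24, and Ccl5 to Cox14 (0.989), Nlgn2 (0.983) and Kcnn4 (0.983). Ccl3 was closest to Lcp1 (0.987), Gm45546 (0.982) and Gm37472 (0.981), Ccl4 to Rpl37a (0.992), Fbxo34 (0.991) and Dnase1l1 (0.990), Ccl7 to Rab11b (0.993), Eef1g (0.992) and Hspe1 (0.986), and Ccl9 to Cwc25 (0.986), Morf4l1 (0.985) and Eif5b (0.981). These cosines describe 8 points, 4 from each region, that share library depth. Deviations from the cohort mean keep the difference between the regions. The genes named beside each ligand are the closest of 8802 searched, and no background cosine was computed.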

How the data were processed

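CD11b+ cells from the midbrain and striatum of control mice were profiled in 10 libraries. Per the file headers, the authors counted reads over exons with featureCounts 1.6.0 on Gencode M17 (GRCm38) without a strand option, after alignment with STAR 2.5.3a, and deposited the raw counts per gene, with no normalization. Groups came from the titles, and the 2 libraries whose title and file name disagree were left out of every group. The study describes both regions of the same mice, so the regions share animals. The titles do not say which libraries share a mouse, and the fits treat the libraries as independent, so p-values measure the spread between libraries. Counts were scaled with TMM (edgeR 4.0.16) and fitted with voom and limma 3.58.1 in R 4.3.3, over all genes with at least 6 counts in at least 50% of the libraries of a fit. Genes were called at an unadjusted two-sided p under 0.01 within a cohort, as in the study, and at a Benjamini-Hochberg adjusted p under 0.05 in the joint fit, the interaction and the cohort comparison. Each fit was repeated with the quasi-likelihood test of edgeR and with DESeq2 1.42.0, and with scaling to library size only, other filters, a replicate block, thinned counts, sample quality weights, both placements of the unassigned libraries and leaving out each library. The procedure was tested on simulated counts of independent libraries, which held no shared mice and no differences in cell mixture. The ligands and gene lists were chosen with earlier results of these data known. Named genes are the 9 ligands, the receptors Ccr1, Ccr2 and Ccr3 (a further receptor of the rule is not reported here), at most 4 genes per list by p among those called in the joint fit, the 3 most abundant genes of each marker list and the 3 genes most like each ligand (mean of at least 10 CPM, log2 CPM with a prior count of 2). CPM at 3 counts marks the floor, and intervals at 95% come from limma. Genes behind short counts and the T cell receptor genes were named after their values were seen.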

Additional observations from a re-analysis of the deposited data

Results flagged for a closer look

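The libraries titled Mdb 2 and Str 2 were used in no comparison, and every ligand had more than 3 counts in both of them. Ccl2 measured 251 CPM in the library titled Mdb 2 and 1024 in the library titled Str 2. Ccl7 measured 29.4 and 347 CPM, and Ccl12 measured 85.0 and 333 CPM. Ccl3 measured 1323 and 1893 CPM, Ccl4 measured 1326 and 1007 CPM, and Ccl5 measured 50.2 and 82.8 CPM. Ccl6 measured 185 and 562 CPM, Ccl9 measured 105 and 199 CPM, and Ccl24 measured 4.89 and 91.8 CPM. Of the 9 ligands, only Ccl4 was higher in the library titled Mdb 2 than in that titled Str 2. These libraries are not replicates of a group, and their region was not inferred from these values.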

How the results depend on the processing

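The number of the 9 ligands that passed was 3 in the pilot, 8 in the second cohort, 2 in the joint fit, 0 for the interaction and 2 between cohorts. With 1 library left out it ranged from 2 to 7, 3 to 9, 0 to 5, 0 to 2 and 0 to 6. In the second cohort it was 3 without striatum replicate 1 and 5 without striatum replicate 3, in the pilot 7 without striatum replicate 2, and the joint count was 0 without pilot midbrain replicate 1, pilot striatum replicate 1, second striatum replicate 1 or second striatum replicate 3, 1 without pilot midbrain replicate 2 and 5 without pilot striatum replicate 2. At an adjusted p under 0.05, 0 passed in the pilot and 2 in the second cohort with limma (1 of 14972 and 48 of 13486 genes). At that threshold edgeR gave 0 and 5 (0 and 168 genes), and DESeq2 gave 3 and 7 (102 and 226 genes). For the pilot, limma, edgeR and DESeq2 each gave 3 at an unadjusted p under 0.05, against 1626, 1441 and 1010 of 14972 genes. The joint count was 4 with DESeq2, which called 544 of 14053 genes, against 149 genes with limma. It was 5 without a filter and 1 with at least 10 counts in every library (Ccl5 not tested). It was 5 with thinned counts, 5 with quality weights and 7 at an unadjusted p under 0.01. Adding the unassigned libraries by title gave 1 in the second cohort, 0 in the joint fit and 0 between cohorts, and adding them by file name gave 5 in the joint fit. Shares of all genes were not computed for added or left-out libraries, other filters, thinned counts, quality weights or the replicate block. Nor were they for the joint fit at an unadjusted p under 0.01, or for edgeR and DESeq2 between cohorts. The interaction count was 1 with DESeq2 (3 of 14053 genes). The count between cohorts was 1 with edgeR, 1 with DESeq2 and 4 with quality weights. Deviations of same-numbered libraries from their group means had correlations of −0.033 in the pilot and −0.0164 in the second cohort. With 2 libraries per group the other pair mirrors the first, so this cannot show whether same-numbered libraries share a mouse. The replicate block gave 4 in the pilot, 9 in the second cohort, 4 in the joint fit and 0 for the interaction. The block was not run between cohorts, where it could not be fitted. With 1 library left out, directions turned in the pilot for Ccl9 (range −0.63 to 0.44, with 0.018 without midbrain replicate 1 and 0.44 without striatum replicate 2), for Ccl3 (−0.073 to 0.36, with −0.026 without midbrain replicate 2 and −0.073 without striatum replicate 1) and for Ccl4 (−0.28 to 0.48, the former without striatum replicate 1). The interaction of Ccl5 ranged from −0.64 to 2.04 and turned to −0.070 without pilot midbrain replicate 2, −0.64 without pilot striatum replicate 2, −0.21 without second midbrain replicate 1 and −0.54 without second striatum replicate 3. It was −0.019 with library size only, −0.97 with the unassigned libraries added by title and −0.55 by file name. By title it also turned for Ccl6 (−0.25), Ccl12 (−0.56) and Ccl24 (−0.21). Ccl3 between cohorts ranged from −0.0082, without second midbrain replicate 1, to 0.41. Scaling by library size only moved the median of all genes between cohorts by −0.105. The causes were not tested. Over all alternatives, 675 values of single ligands kept direction and side of the threshold, 51 came past it, 55 lost it and 16 turned. Depth limited the striatum of the second cohort most, where replicate 3 held 8 counts of Ccl5.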
